A study of Mus musculus with 46 samples.

Results

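The 7 genes described here encode subunits of the canonical BAF complex, or CBAF, together with SS18, the subunit that is fused to SSX in synovial sarcoma. They are Arid1a and Arid1b, Dpf1, Dpf2 and Dpf3, and Ss18 and its paralog Ss18l1. They were chosen by name as these subunits and make up 7 of the 56980 genes counted in hSS2 tumors and 7 of the 56941 counted in hSS1 tumors. All 7 were in both tables, and all 7 passed the filter on low counts in every fit.

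RNA sequencing was performed on 46 bulk mouse tumors, with 1 library per tumor. Every mouse carried a human fusion in the Rosa26 locus, SS18::SSX2 in hSS2 (called SSM2 in the labels) and SS18::SSX1 in hSS1, which TATCre protein injected into the limb of young mice switched on. The same Cre removes floxed exons, and control tumors received it as well. A bulk tumor also holds host cells that Cre did not reach, and these keep intact floxed genes. The hSS2 groups were 13 control tumors whose labels name the fusion alone, 8 Pbrm1-fl, 8 Arid1a-fl and 8 Arid1b-fl tumors, and the hSS1 groups were 5 control and 4 Pbrm1-fl tumors. Per the study the floxed mice were homozygous, both sexes were included and age at tumor collection varied. The labels name neither strain nor sex. The comparisons ask how the level of each CBAF gene differs when Pbrm1, Arid1a or Arid1b is disrupted, and whether the paralog of a disrupted subunit stands higher. Tumors with floxed Arid1a or Arid1b in the hSS1 background were not analysed here.

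BAF complexes use the energy of ATP to move or evict nucleosomes and exist in 3 assemblies. CBAF contains either ARID1A or ARID1B, large subunits that hold the complex together and bind DNA, and 1 of the DPF proteins, whose paired PHD fingers read acetylated histone tails. DPF2 is the widely expressed member of that family, whereas DPF1 is best known from neurons and DPF3 from heart and skeletal muscle. SS18, or its neuronal paralog SS18L1, sits in CBAF and in the non-canonical GBAF, but not in PBAF, which has ARID2, PBRM1 and a different PHD finger subunit. In synovial sarcoma the fusion protein replaces wild-type SS18 in these complexes.

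The exons that Cre removes are short parts of long transcripts. Arid1a (ENSMUSG00000007880) lies on chromosome 4, 133679008 to 133756769, on the minus strand of GRCm38, and Arid1b (ENSMUSG00000069729) on chromosome 17, 4994332 to 5347656, on the plus strand. Exon 8 of Arid1a, chr4:133693758-133694070, has 313 bases, or 2.73% of the gene's exonic length, and is shared by 3 of 3 full-length transcripts. Exon 5 of Arid1b, chr17:5242828-5243071, has 244 bases, or 1.94% of the exonic length, and is shared by 4 of 4. Neither length is a multiple of 3. The sequences are shown because the study names exons 8 and 5 as those removed. Each exon was located by its number in the transcript with the longest coding sequence. That the study numbered exons in the same way was not checked. Capitals mark the longest run of bases shared with the transcript of longest coding sequence of the other paralog, 12 bases in Arid1a and 16 in Arid1b. For Arid1a the first 300 bases are printed, and both are transcript-sense sequence from the GENCODE M21 transcripts.
Arid1a exon 8: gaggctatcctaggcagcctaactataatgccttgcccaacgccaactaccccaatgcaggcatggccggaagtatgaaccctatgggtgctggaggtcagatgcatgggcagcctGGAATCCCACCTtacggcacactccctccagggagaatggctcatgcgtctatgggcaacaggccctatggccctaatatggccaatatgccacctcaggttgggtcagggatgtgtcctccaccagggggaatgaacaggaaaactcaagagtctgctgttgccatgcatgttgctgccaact
Arid1b exon 5: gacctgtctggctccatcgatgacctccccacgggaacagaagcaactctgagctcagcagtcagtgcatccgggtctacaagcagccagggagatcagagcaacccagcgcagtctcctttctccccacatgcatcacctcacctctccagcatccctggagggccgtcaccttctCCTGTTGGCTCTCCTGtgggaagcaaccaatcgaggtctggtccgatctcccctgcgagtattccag

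The deposited counts are per gene and cannot show whether an exon is missing. Exact matches between paralogs were at most 31 bases long, and no pair shared a stretch of 100 bases, so a read of that length from 1 paralog had no exact match in the other. Reads of the human SS18 part of the fusion transcript may have been counted at mouse Ss18, and gene-level counts cannot tell the 2 apart. Short annotated genes overlap Arid1a (Mir7227) and Ss18 (Gm24924) on the same strand and Arid1b, Dpf1 and Dpf2 on the opposite strand. The most abundant of these, Gm42067, antisense to Dpf2, had a median of 40 counts.

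Total counts ranged from 10613976 to 21294657 per hSS2 library and from 10137668 to 14130024 per hSS1 library. Levels are given as CPM, counts relative to library size, after TMM scaling within a table, and levels of different genes are compared only as CPM per kilobase of exon. The 37 hSS2 libraries shared 1 edgeR quasi-likelihood fit and the 9 hSS1 libraries another. Adjusted p-values come from that test with Benjamini-Hochberg adjustment over all genes tested, with a threshold of 0.05. Mouse numbers went with the floxed gene. Arid1a-fl mice were all numbered under 1000, Arid1b-fl and hSS1 Pbrm1-fl mice from 1000 to under 2000, and hSS2 Pbrm1-fl mice 2000 or over, while the hSS2 control tumors covered all 3 ranges. Whatever the range stands for and the genotype can be told apart only through the control tumors.

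Single tumors were also examined for the genes around Arid1a and Arid1b, and 3 of the 37 hSS2 libraries stood apart. They are control replicates 1 and 9 and Arid1b-fl replicate 6. In the library labelled hSS2 control replicate 9, Arid1a stood at 238 CPM, against 422 to 587 CPM in the other 12 control tumors. Its neighbors were low as well. Among the 206 protein-coding genes within 10 Mb of Arid1a with a mean of at least 10 CPM, 97.1% were below their control median in that library, by a median of 0.85 on the log2 scale. The low level spanned chromosome 4 from 120 Mb to its end, where 315 of 330 genes were below the control median (median log2 difference -0.85). The 355 genes before 120 Mb had a median difference of 0.00. Of its other autosomes, chromosome 14 had a median of -0.66, chromosome 6 one of 0.23, and the rest lay between -0.03 and 0.03.

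Arid1b-fl replicate 6 showed the same pattern over a longer stretch. Its Arid1a level, 297 CPM, was the lowest of the Arid1b-fl tumors (the others had 444 to 612 CPM), and 95.6% of the 206 neighbors were below their control medians, with a median log2 difference of -0.72. From 80 Mb to the end of chromosome 4, 447 of 479 genes were lower (median -0.75), and the 206 genes before 80 Mb had a median of 0.07. In all other hSS2 tumors the neighbors of Arid1a had medians from -0.02 to 0.22. The Arid1a-fl tumors were among these, at -0.02 to 0.15. The stretch limits of 120 and 80 Mb were set after the values were seen.

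**Figure D1:**
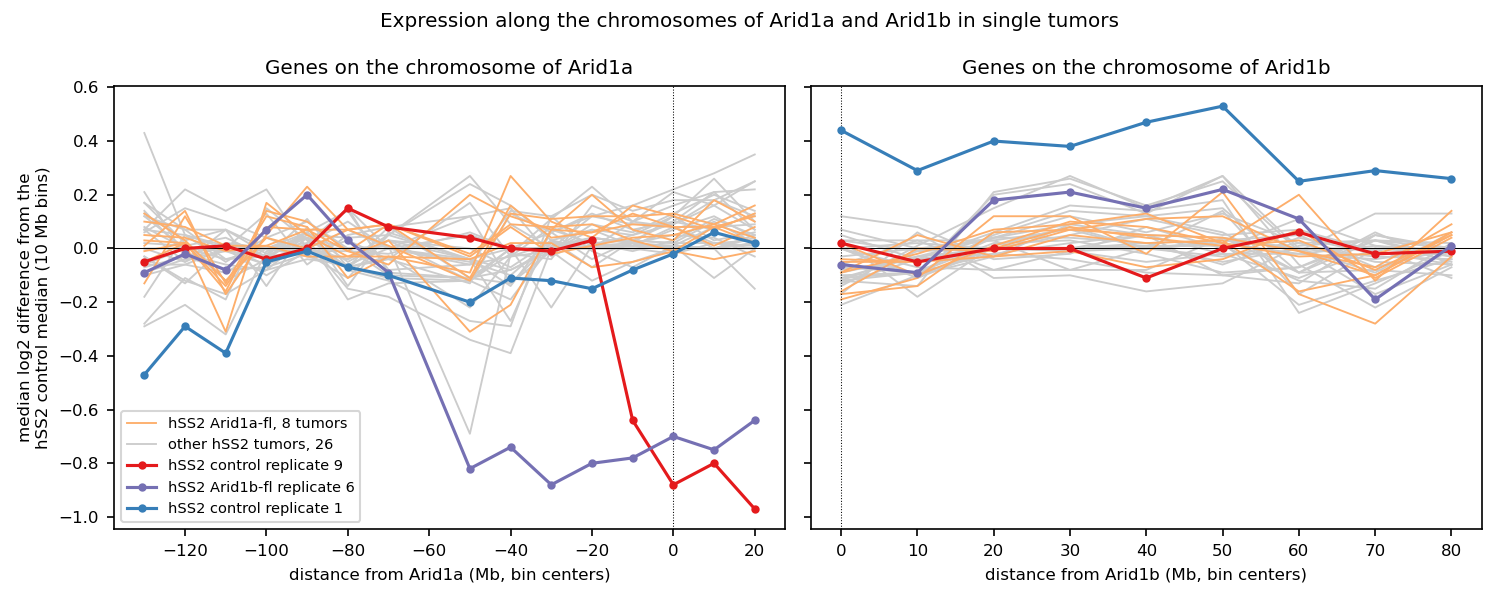
Each line is 1 hSS2 tumor, and each point the median log2 difference from the hSS2 control median over the protein-coding genes in a 10 Mb bin, plotted against distance from Arid1a (left) or Arid1b (right) along the chromosome; bins of under 10 genes are not drawn. Control replicate 9 and Arid1b-fl replicate 6 lie between -0.97 and -0.64 in a block that contains Arid1a, the 8 Arid1a-fl tumors do not, and control replicate 1 is above the other tumors along the chromosome of Arid1b.

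The third library, hSS2 control replicate 1, had the highest Arid1b level of all tumors, 686 CPM against 222 to 427 CPM in the other 12 control tumors. The 37 measured neighbors of Arid1b had a median log2 difference of 0.41 there, and the 530 genes of chromosome 17 one of 0.39, against -0.06 to 0.16 in the other 36 hSS2 libraries. Other autosomes of that library ranged from -0.20 to 0.44, the highest being chromosome 11. Arid1b itself was 1.09 above the control median on the log2 scale and thus 0.67 above its neighbors. No measurement of DNA was used here, and what underlies these blocks was not tested. All 3 libraries were kept in their labelled groups, and values without them are given beside the main results.

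Per kilobase of exon, the 7 genes fell into 3 tiers in the hSS2 control tumors (n = 13, mean ± SD). Arid1a was the most abundant at 42 ± 7.47 CPM per kilobase, and Arid1b followed at 27.7 ± 9.07. Ss18 (15.8 ± 1.46) and Dpf2 (13.7 ± 2.03) formed the second tier. Ss18l1 (4.87 ± 0.728), Dpf3 (2.06 ± 0.884) and Dpf1 (1.80 ± 0.814) were the least abundant. The ranges of neighbors in this order overlapped, for Arid1b (17.6 to 54.4) and Ss18 (13.4 to 17.8) only at the edge. The exception was Ss18l1. Every Ss18l1 level (4.06 to 6.55) lay below every Dpf2 level (10.5 to 19.3) and above every Dpf3 level (0.496 to 3.81). The hSS1 control tumors had the same first 5 genes in the same order, with Arid1a at 60.3 ± 11.5 CPM per kilobase (n = 5) and no overlap between Arid1a (49 to 79) and Arid1b (15.3 to 28.9).

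**Figure D2:**
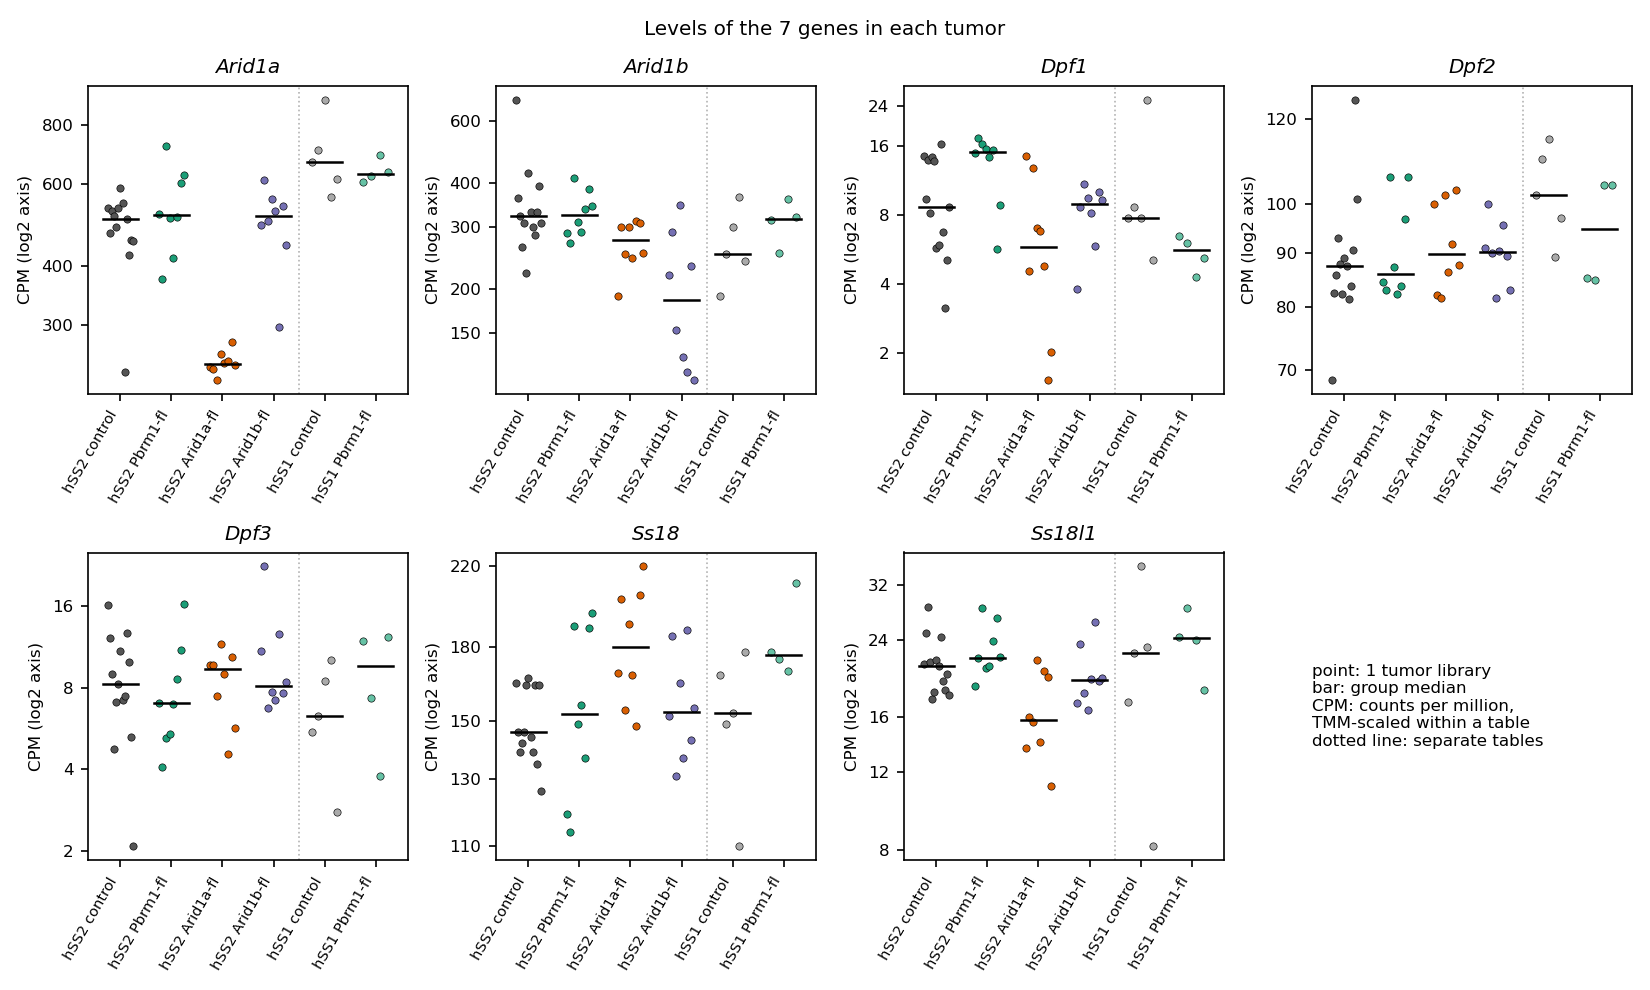
Level of each gene in CPM (log2 axis) in every tumor of the 6 groups; points are libraries and bars are group medians, and the hSS1 groups come from a separately scaled table. The Arid1a-fl tumors sit between 229 and 276 CPM of Arid1a, and 5 of 8 Arid1b-fl tumors lie below every hSS2 control tumor for Arid1b. Among the hSS2 control tumors Dpf1 and Dpf3 are the most scattered.

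The genes also differed in how much tumors of 1 group varied. Ss18 had the smallest coefficient of variation over the hSS2 control tumors, 9.21%, followed by Dpf2 (14.8%), Ss18l1 (15%) and Arid1a (17.8%). Arid1b varied by 32.8%, and Dpf3 and Dpf1 by 43% and 45.2%. Part of this order came from the libraries that stood apart. Without control replicates 1 and 9 (n = 11) the coefficient was 9.59% for Arid1a, next to 9.27% for Ss18, and 17.8% for Arid1b, while Dpf2 (13.5%), Ss18l1 (15.8%), Dpf3 (40.3%) and Dpf1 (44.8%) moved little.

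In Arid1a-fl tumors Arid1a fell, and no other member passed the threshold. Arid1a ranged from 229 to 276 CPM in the 8 Arid1a-fl tumors (median 247) and from 238 to 587 CPM in the 13 hSS2 control tumors (median 505). The only control tumor inside the floxed range was replicate 9. The log2 fold change was -0.95 (SE 0.13, with an adjusted p of 7.0e-05), -0.99 (adjusted p 4.6e-08) without the 3 libraries above, and -0.73 (adjusted p 0.0146) against the 5 control tumors of the same mouse number range, which include replicate 9. With each tumor set against its own neighbors, the 8 Arid1a-fl tumors were 0.99 to 1.21 lower than the neighbors on the log2 scale. Arid1a of the control tumors lay between -0.26 and 0.22 of theirs, and that of replicate 9 at -0.23. This last contrast was devised after the values were seen and carries no test. Among the Arid1a-fl tumors the coefficient of variation of Arid1a was 5.64%, beside 5.75% in hSS1 Pbrm1-fl tumors and 9.59% in hSS2 control tumors without replicates 1 and 9. In bulk tumors, fewer cells that express a gene and less RNA per cell cannot be told apart.

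Of the 7 members 1 passed the threshold in this comparison, beside 3.17% of all genes in either direction and 1.76% lower. Without overlap between the groups stood 0 of 7 members and 0.0299% of all genes. At an unadjusted p under 0.05 there were 3 members, Arid1a, Ss18 and Ss18l1, beside 23.0% of all genes. DESeq2 called these same 3 genes, and 8.44% of all genes.

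The paralog was not higher in Arid1a-fl tumors. Arid1b ranged from 192 to 311 CPM (median 276), against 222 to 686 CPM (median 323) in control tumors, and all 8 Arid1a-fl tumors lay below the control median. The log2 fold change was -0.37 (SE 0.18, 95% interval -0.73 to -0.01), with an edgeR unadjusted p of 0.0501 and an adjusted p of 0.217. Without the 3 libraries, and equally without control replicate 1 alone, it was -0.25. The difference did not pass the threshold in any of these fits, and its sign was negative in each.

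Arid1b varied more among Arid1b-fl tumors (coefficient of variation 43.7%) than Arid1a did among Arid1a-fl tumors, and its difference from control passed the threshold in DESeq2 but not in edgeR. The 8 Arid1b-fl tumors had 219, 291, 153, 347, 129, 117, 232 and 111 CPM in replicates 1 to 8, a median of 186 CPM. Replicates 3, 5, 6 and 8 formed a low set with replicate 1 just below the lowest control tumor (222 CPM), and replicate 4 was above the control median. The log2 fold change was -0.80 (SE 0.19, 95% interval -1.17 to -0.44), with an adjusted p of 0.145 in edgeR and 0.0214 in DESeq2. Without the 3 libraries it was -0.63 (adjusted p 0.487). Without replicate 4 it was -0.96 (adjusted p 0.0150) and without replicate 2 it was -0.92 (adjusted p 0.0462), and both of these passed, whereas without replicate 5 the adjusted p was 0.474. With the mouse number range as a term, and equally against control tumors of the same range, it was -0.69 with an adjusted p of 1.00. The neighbors of Arid1b stood between -0.13 and 0.12 in these tumors.

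Of the 7 members 0 passed the edgeR threshold in Arid1b-fl tumors, 1 did in DESeq2, and 1 had an unadjusted p under 0.05, in each case Arid1b. The background was 0.0548% of genes past the threshold and 6.22% at the unadjusted level, and 0.0747% past the threshold in DESeq2. Arid1a stood at 297 to 612 CPM (median 512) in Arid1b-fl tumors, with a log2 fold change of 0.04 (SE 0.12, 95% interval -0.20 to 0.28, adjusted p 0.992). The sign turned to -0.13 against the 4 control tumors of the same mouse number range, and to -0.04 without control replicate 9 alone. Without Arid1b-fl replicate 6, whose chromosome 4 is low, it was 0.12.

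**Figure D3:**
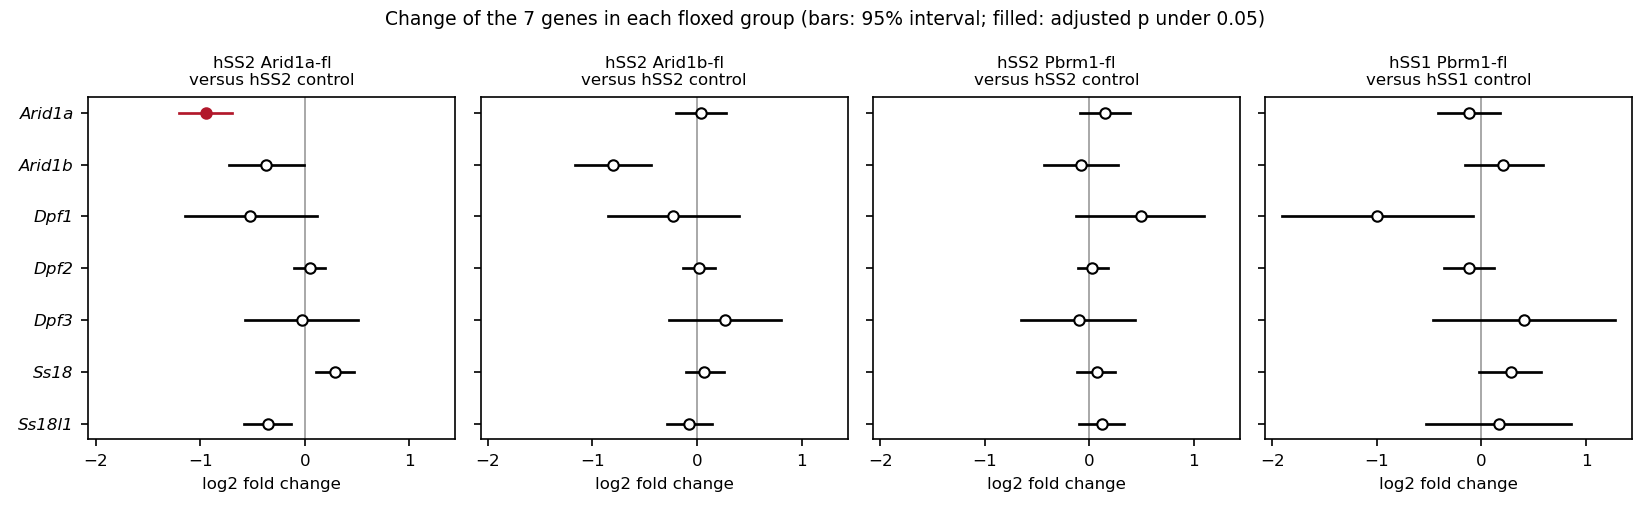
Log2 fold change of each member with its 95% interval in the 4 comparisons with control tumors; filled points passed an adjusted p of 0.05. Arid1a in Arid1a-fl tumors (-0.95) is the only filled point, and the intervals of Dpf1 and Dpf3 are the widest in each comparison.

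Set directly against each other, the Arid1a-fl and Arid1b-fl tumors differed in Arid1a. All 8 Arid1a-fl tumors (229 to 276 CPM) lay below all 8 Arid1b-fl tumors (297 to 612 CPM), for a log2 fold change of -0.99 (SE 0.14, with an adjusted p of 0.000176). With the mouse number range as a term it was -0.61 and no longer passed (adjusted p 0.277). Arid1b was 0.43 higher in Arid1a-fl than in Arid1b-fl tumors on the log2 scale (SE 0.20, with an adjusted p of 0.373), and the ranges overlapped. Of the 7 members 1 passed here, beside 0.0996% of all genes in either direction and 0.0299% lower, and 1 did not overlap between the groups, beside 0.120%. The comparison uses no control tumors as such, and the 2 groups come from different mouse number ranges throughout.

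The balance between the ARID1 paralogs followed these values. Arid1b made up 39.5 ± 7.64% of the summed per-kilobase level of Arid1a and Arid1b in hSS2 control tumors (n = 13), 49.4 ± 3.69% in Arid1a-fl (n = 8), 26.1 ± 6.19% in Arid1b-fl (n = 8) and 36.2 ± 2.39% in hSS2 Pbrm1-fl tumors (n = 8). Without replicates 1 and 9 the control share was 36.9 ± 4.76% (n = 11), and without replicate 6 the Arid1b-fl share was 26 ± 6.68% (n = 7). In hSS1 the share was 26.3 ± 6.35% in control (n = 5) and 30.7 ± 2.46% in Pbrm1-fl tumors (n = 4). The sum of both was 69.7 ± 12.9 CPM per kilobase in hSS2 control, 43.1 ± 4.04 in Arid1a-fl, 59 ± 13.9 in Arid1b-fl and 72.8 ± 13.5 in Pbrm1-fl tumors. No test was applied to the shares and sums, since they are built from the gene each group was made to lose.

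**Figure D4:**
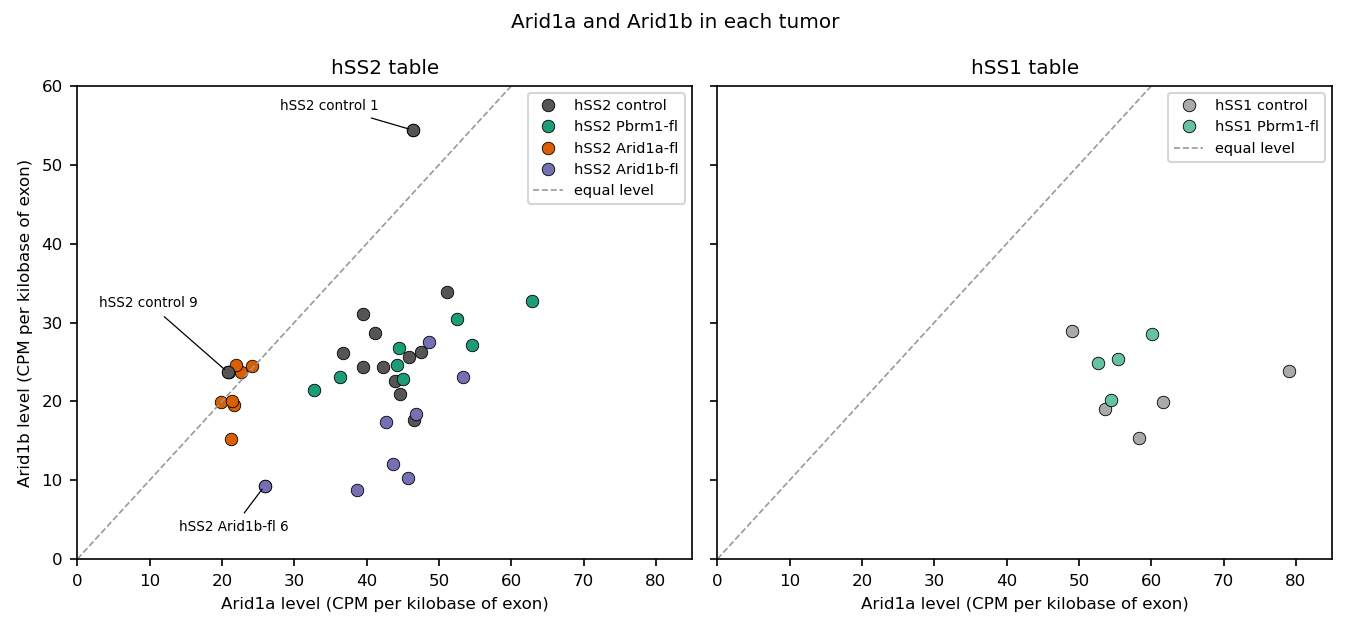
Arid1b against Arid1a level, in CPM per kilobase of exon, in each hSS2 tumor (left) and each hSS1 tumor (right); the dashed line marks equal levels. The Arid1a-fl tumors cluster near that line at 19.9 to 24.1 of Arid1a, the Arid1b-fl tumors spread downward from the controls, and the labelled points are the 3 tumors whose neighbors stand apart.

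In Pbrm1-fl tumors neither ARID1 gene differed from control beyond the spread. Arid1a had 376 to 722 CPM (median 514) in hSS2 Pbrm1-fl tumors, a log2 fold change of 0.15 (SE 0.12, 95% interval -0.09 to 0.39), and Arid1b had 271 to 412 CPM (median 324), a log2 fold change of -0.08 (SE 0.18, 95% interval -0.43 to 0.27). In hSS1, Arid1a stood at 604, 624, 690 and 636 CPM in the 4 Pbrm1-fl tumors and at 669, 707, 906, 563 and 615 CPM in the 5 control tumors. Arid1b stood at 314, 254, 361 and 320 CPM against 192, 251, 299, 364 and 240 CPM. The ranges overlapped for both genes, with log2 fold changes of -0.12 (SE 0.15) and 0.21 (SE 0.19). In hSS2 Pbrm1-fl tumors 0 of 7 members passed in edgeR and in DESeq2, and 0 had an unadjusted p under 0.05, beside 7.35% of all genes past the threshold in edgeR, 10.8% in DESeq2 and 22.4% at the unadjusted level. In hSS1 the member counts were again 0, 0 and 0, beside 0.00562%, 6.66% and 17.2%. The CPM ranges of the groups overlapped for all 7 members in both backgrounds, whereas 0.284% of all genes in hSS2 and 6.82% in hSS1 showed no overlap. Pbrm1 itself, the targeted gene, stood at 95 to 139 CPM in hSS2 Pbrm1-fl and 171 to 316 CPM in hSS2 control tumors, and at 102 to 252 CPM in hSS1 Pbrm1-fl and 275 to 373 CPM in hSS1 control tumors.

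Among the DPF genes, Dpf2 (chromosome 19, 5896516 to 5913010) carried most of the family's RNA and was the steadiest. It made up 77.8 ± 7.59% of the summed per-kilobase level of the 3 genes in hSS2 control tumors, 75.9 ± 2.60% in Pbrm1-fl, 81.4 ± 5.22% in Arid1a-fl and 77.9 ± 3.77% in Arid1b-fl tumors. The shares in hSS1 were 81.9 ± 9.38% in control and 82.4 ± 5.85% in Pbrm1-fl tumors. In the 4 hSS2 groups its level ranged from 68.5 to 125 CPM (median 87.5) in control, 82.3 to 106 CPM (median 85.9) in Pbrm1-fl, 81.6 to 103 CPM (median 89.7) in Arid1a-fl and 81.6 to 100 CPM (median 90.2) in Arid1b-fl tumors. The log2 fold changes were 0.03, 0.05 and 0.02 for the 3 floxed groups in that order, each with an SE of 0.08. Their 95% intervals together reached from -0.13 to 0.19. The sign turned to -0.07 in Arid1a-fl tumors with the mouse number range as a term.

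Dpf1 (chromosome 7, 29303951 to 29318243) had the largest coefficient of variation of the 7 members in hSS2 control tumors. It ranged from 3.16 to 16.4 CPM (median 8.71) in hSS2 control tumors, from 5.69 to 17.4 CPM (median 15.1) in Pbrm1-fl, from 1.53 to 14.5 CPM (median 5.80) in Arid1a-fl and from 3.79 to 10.9 CPM (median 9) in Arid1b-fl tumors. All of these ranges overlapped. Of the 8 Pbrm1-fl tumors 7 lay above the control median, and of the 8 Arid1a-fl tumors 6 lay below it. The log2 fold changes were 0.49 (SE 0.31, 95% interval -0.13 to 1.10) in Pbrm1-fl, -0.52 (SE 0.32, 95% interval -1.15 to 0.12) in Arid1a-fl and -0.23 (SE 0.32, 95% interval -0.85 to 0.40) in Arid1b-fl tumors, with adjusted p-values of 0.373, 0.333 and 0.957. Changes of Dpf1 within these intervals were not excluded here.

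In hSS1 the Pbrm1-fl tumors had 6.46, 6.07, 4.28 and 5.21 CPM of Dpf1, and the control tumors had 7.80, 8.69, 7.80, 25.5 and 5.09 CPM. Control replicate 4 was far above the rest, and replicate 5 lay within the Pbrm1-fl range. The Pbrm1-fl level was 0.501 times the control level (95% interval of the log2 ratio -1.91 to -0.08). The edgeR test gave an unadjusted p of 0.0610 and an adjusted p of 0.313. Without control replicate 4 the log2 ratio was -0.40 (adjusted p 0.435). The Pbrm1-fl effect on Dpf1 in hSS1 minus that in hSS2 was -1.49 (SE 0.58, unadjusted p 0.0144, adjusted p 0.149), and -0.88 (adjusted p 0.389) without that tumor. It was the only one of the 7 members with an unadjusted p under 0.05 in this test, and 0 passed the threshold in edgeR and in DESeq2, beside 2.86% of all genes past it in edgeR, 5.5% in DESeq2 and 18.9% at the unadjusted level. The summed level of 10 neuron and Schwann cell markers (6 of which passed the filter on low counts and 1 of which was at 0 in every tumor) was 161, 257, 183, 42.2 and 18.5 CPM in the 5 control tumors. In the 4 Pbrm1-fl tumors it was 21.6, 19.6, 24.9 and 20.9 CPM. Control replicate 4, the highest for Dpf1, was the second lowest control tumor for these markers. Their part in the result was not tested.

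Dpf3 (chromosome 12, 83213745 to 83487716) spread nearly as widely in hSS2 control tumors, and more widely than Dpf1 in 3 of the 6 groups. Its coefficient of variation was 48.9% in hSS2 Pbrm1-fl, 49.6% in Arid1b-fl and 45.9% in hSS1 Pbrm1-fl tumors, where that of Dpf1 was 30%, 28.3% and 17.5%. It ranged from 2.09 to 16.1 CPM (median 8.23) in hSS2 control, 4.10 to 16.3 CPM (median 7) in Pbrm1-fl, 4.54 to 11.6 CPM (median 9.34) in Arid1a-fl and 6.71 to 22.3 CPM (median 8.07) in Arid1b-fl tumors. The medians lay close together, and the highest value belonged to replicate 2 of the Arid1b-fl tumors. Log2 differences from control were -0.10 (SE 0.28), -0.03 (SE 0.28) and 0.27 (SE 0.27) in Pbrm1-fl, Arid1a-fl and Arid1b-fl tumors, and the last became -0.01 without replicate 2. In hSS1 Dpf3 stood at 11.9, 7.33, 3.77 and 12.3 CPM in Pbrm1-fl and 5.50, 6.28, 8.49, 10.1 and 2.78 CPM in control tumors, with overlap in both directions and a log2 fold change of 0.41 (SE 0.44, 95% interval -0.46 to 1.28). In hSS1 control replicate 3 Dpf3 was 0.43 above the hSS1 control median on the log2 scale. The 100 measured neighbors of Dpf3 had a median of 0.46 there. Summed over the 3 genes, the DPF level was nearly even across groups, from 17.4 ± 1.95 CPM per kilobase in Arid1a-fl to 19.4 ± 1.92 in hSS1 control tumors, with 17.6 ± 1.26 in hSS2 control tumors. No test was applied to the sums.

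In hSS1, Dpf2 stood at 85.3, 84.8, 104 and 104 CPM in Pbrm1-fl and 102, 110, 115, 89.1 and 96.9 CPM in control tumors. Both groups spanned much the same range, and the log2 fold change was -0.12 (SE 0.12, 95% interval -0.36 to 0.12).

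Ss18 (chromosome 18, 14624198 to 14682914) stood above most control tumors in the Arid1a-fl group without passing the edgeR threshold. It ranged from 148 to 220 CPM (median 180) in the 8 Arid1a-fl tumors and from 126 to 167 CPM (median 146) in the 13 control tumors. All 8 Arid1a-fl tumors were above the control median and 6 of 8 were above every control tumor. The log2 fold change was 0.29 (SE 0.09, 95% interval 0.11 to 0.47) with an unadjusted p of 0.00392 and an adjusted p of 0.0705, so it missed the threshold in edgeR, whereas DESeq2 gave an adjusted p of 0.0322. Leaving out 1 tumor at a time moved the edgeR adjusted p between 0.0360 and 0.181. The other groups were nearer to control. Pbrm1-fl tumors had 114 to 196 CPM (median 152) and Arid1b-fl tumors 131 to 188 CPM (median 154), both with a log2 fold change of 0.07 (SE 0.09). Pbrm1-fl tumors lay on both sides of the control range, with 3 above and 2 below it.

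Ss18l1 (chromosome 2, 180042509 to 180070201) stood on the other side of control in the same tumors. Its level was 11.2 to 21.6 CPM (median 15.8) in Arid1a-fl and 17.6 to 28.5 CPM (median 20.9) in control tumors. Of the 8 Arid1a-fl tumors 5 were below every control tumor and 1 was above the control median. The log2 fold change was -0.35 (SE 0.11, 95% interval -0.58 to -0.13) with an unadjusted p of 0.00342 and an adjusted p of 0.0663 in edgeR and of 0.0244 in DESeq2, and 0.0347 to 0.175 in edgeR when 1 tumor was left out at a time. In Pbrm1-fl tumors it had 18.8 to 28.4 CPM (log2 fold change 0.12, SE 0.11) and in Arid1b-fl tumors 16.6 to 26.4 CPM (log2 fold change -0.08, SE 0.11). Per kilobase, Ss18l1 made up 23.5 ± 3.29% of the pair in hSS2 control tumors (n = 13) and 16.6 ± 3.89% in Arid1a-fl tumors (n = 8), with 24.4 ± 3.03% in Pbrm1-fl and 21.7 ± 1.97% in Arid1b-fl tumors. No test was applied to this share.

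In hSS1 tumors Ss18 stood at 178, 175, 170 and 211 CPM with Pbrm1 floxed and at 168, 149, 153, 110 and 178 CPM in control. All 4 Pbrm1-fl tumors were above the control median and 2 above every control tumor, with a log2 fold change of 0.28 (SE 0.15, 95% interval -0.02 to 0.57, adjusted p 0.380). The lowest tumor, control replicate 4, was 0.48 below the control median on the log2 scale, and the 50 measured neighbors of Ss18 had a median of -0.29 there. Ss18l1 stood at 24.4, 28.4, 24 and 18.5 CPM in Pbrm1-fl and at 17.3, 22.4, 35.2, 23.1 and 8.16 CPM in control tumors. Control tumors included both the highest and the lowest value, and the log2 fold change was 0.17 (SE 0.36).

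Levels of Ss18, and of some other members, varied with markers of some other cell types. Over the 37 hSS2 libraries, after the mean of each group was subtracted, Ss18 had a Pearson r of -0.79 with the macrophage score, the mean log2 CPM of 10 macrophage markers, of -0.63 with the fibroblast score and of -0.54 with the adipocyte score. Without the 3 libraries that stood apart these were -0.78, -0.59 and -0.54. The other lists had smaller values over the 37 libraries. They were -0.44 for muscle, -0.38 for erythroid, 0.31 for proliferation, -0.23 for neuron and Schwann and -0.04 for endothelial markers. With the macrophage, fibroblast and adipocyte scores Ss18l1 had an r of -0.47, -0.49 and -0.5, and Dpf3 one of -0.51, -0.53 and -0.51. Dpf3 had an r of -0.44 with the muscle score. For Arid1a, Arid1b, Dpf1 and Dpf2 the r with the macrophage score was -0.12, -0.2, 0.42 and -0.41. The libraries share sequencing depth and TMM scaling, and the values are descriptions. Summed macrophage marker levels had a median of 205 CPM (78.5 to 712) in Arid1a-fl, 329 CPM (87.9 to 721) in control, 355 CPM (44.2 to 991) in Pbrm1-fl and 434 CPM (66.4 to 937) in Arid1b-fl tumors. All 10 markers passed the filter and none was at 0 in every tumor of a group. Of 8 fibroblast markers the summed median was 604 CPM (329 to 912) in Arid1a-fl and 492 CPM (383 to 1140) in control tumors, and of 8 adipocyte markers, 7 of which passed the filter, 6.77 CPM (0.599 to 35.3) and 33.5 CPM (1.13 to 402). Of 12 proliferation genes it was 948 CPM (315 to 2320) and 417 CPM (116 to 1740). The ranges overlapped for all of these lists and 0 of their genes passed the threshold in Arid1a-fl tumors, with median log2 fold changes of -0.29 (macrophage), -1.49 (fibroblast), -2.99 (adipocyte) and 0.80 (proliferation). The part of the fibroblast, adipocyte and proliferation genes in the Ss18 and Ss18l1 values was not tested. With the macrophage score as a term in the fit, an alternative added after this correlation was seen, the log2 fold change of Ss18 in Arid1a-fl tumors was 0.25 with an adjusted p of 0.0240, and that of Ss18l1 was -0.38 with an adjusted p of 0.0320. With the skeletal muscle score as a term, Ss18l1 passed as well (-0.41, adjusted p 0.0302) but Ss18 did not (0.25, adjusted p 0.0973). Neither passed with the mouse number range as a term, where Ss18 was 0.32 (adjusted p 0.0945) and Ss18l1 -0.28. Against control tumors of the same range Ss18 was 0.33 (adjusted p 0.123). Over 9 alternative settings in edgeR or DESeq2 the adjusted p ran from 0.0240 to 0.123 for Ss18 and 0.0244 to 0.210 for Ss18l1. Ss18l1 had an r of -0.52 with the muscle score (-0.46 without the 3 libraries), and the summed level of 15 muscle markers ranged from 26.7 to 110000 CPM in control and from 18.1 to 25200 CPM in Arid1a-fl tumors.

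**Figure D5:**
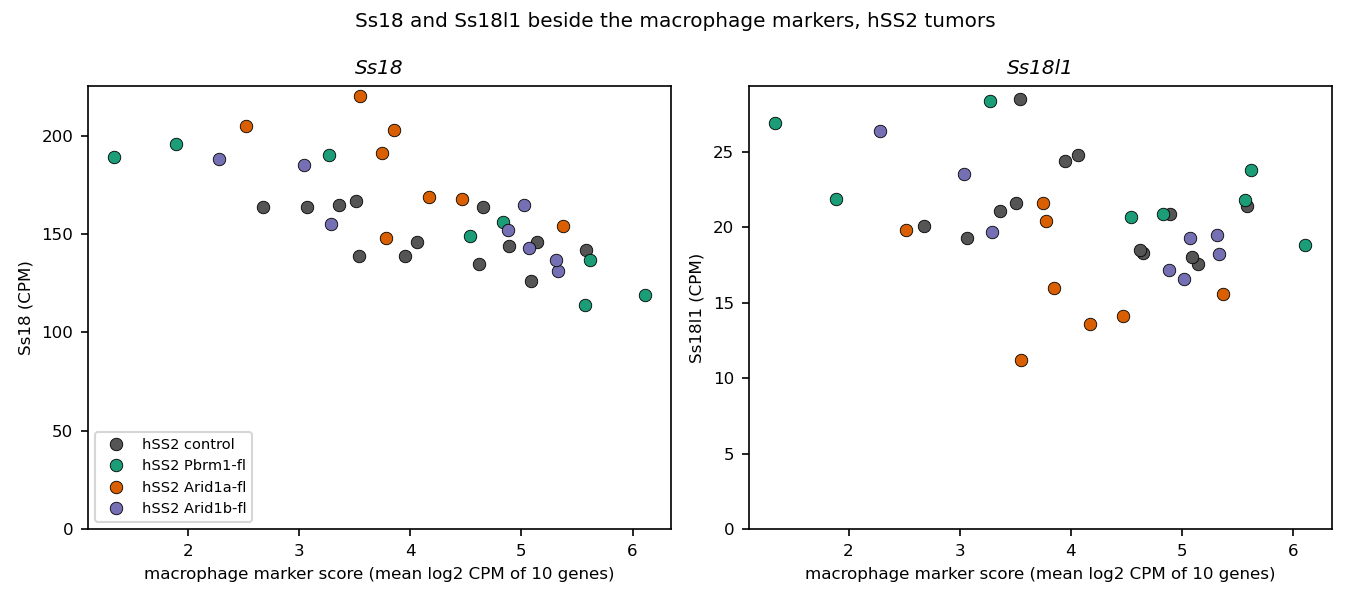
Level of Ss18 (left) and Ss18l1 (right), in CPM, against the macrophage score (mean log2 CPM of 10 markers) in each of the 37 hSS2 tumors, colored by group. Ss18 is lower where the score is higher, 6 of 8 Arid1a-fl tumors lie above every control tumor for Ss18, and 5 of 8 lie below every control tumor for Ss18l1.

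Over the 7 members the median log2 fold change was 0.07 in hSS2 Pbrm1-fl, -0.35 in Arid1a-fl, 0.02 in Arid1b-fl and 0.17 in hSS1 Pbrm1-fl tumors, beside -0.00, -0.04, 0.00 and 0.01 over all genes tested. The Arid1a-fl and Arid1b-fl medians include the gene each group was made to lose (-0.95 and -0.80). They thus do not describe the other members alone, and no test was applied to them. The other 22 listed BAF-family genes, of which 21 were tested within each table, gave medians of 0.07, 0.10, 0.05 and -0.12 in the same order. In hSS2 Pbrm1-fl tumors 1 of 21 passed higher and 1 lower in edgeR, beside 7.35% of all genes in either direction. Smarca4, the BRG1 ATPase of the complexes, rose in hSS2 Pbrm1-fl tumors (log2 fold change 0.47, adjusted p 0.0126), where Pbrm1 itself fell (-1.27, adjusted p 4.2e-12). DESeq2, which called 10.8% of all genes there, also called the core subunit Smarcb1 higher, which edgeR did not (0.31, adjusted p 0.0568). In Arid1a-fl tumors Smarcd2, a core BAF60 subunit (0.43, adjusted p 0.0453), and Actl6a, the BAF53A actin-related subunit (0.44, adjusted p 0.0467), rose and none fell. These were 2 of 21, beside 3.17% of all genes in either direction. DESeq2 called 7 of 21 higher and 0 lower in the same comparison, beside 8.44% of all genes in either direction. The 7 were Smarca4, Smarcc1, Smarcd2, Actl6a, Bcl7c, Pbrm1 and Brd7. In edgeR without the 3 libraries 3 were called, the third being Brd7, beside 4.03% of all genes. In Arid1b-fl tumors 0 of 21 passed in edgeR and in DESeq2 and 2 had an unadjusted p under 0.05 in edgeR. The shares of all genes were 0.0548%, 0.0747% and 6.22%. In hSS1 Pbrm1-fl tumors 0 passed in either tool and 5 had an unadjusted p under 0.05 in edgeR, beside 0.00562%, 6.66% and 17.2%. In the comparison of the Pbrm1-fl effect between hSS1 and hSS2, Bcl7a, whose hSS1 ratio was 0.499 times that in hSS2 (adjusted p 0.0446), was the only one of 22 past the threshold, and 0 were without the 3 libraries. The shares of all genes in these 2 fits were 2.86% and 4%. These other BAF-family genes were not examined with the mouse number range or a marker score as a term. Nor were they examined against control tumors of the same range or with single tumors left out.

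The genes whose levels were most like those of each member were named from the group-centered Pearson r over the 37 hSS2 libraries. Srsf4 (r 0.80) and Lypla2 (0.80) were among those for Arid1a, and both lie near it on chromosome 4, at distances of 1.8 and 2.3 Mb. The median r of Arid1a with genes within 10 Mb was 0.47, beside 0.01 for the other genes. Without the 3 libraries that stood apart, these medians were 0.11 and 0.02, and the most similar genes became Kat6a (0.75), Taf4 (0.72) and Kmt2a (0.71), which encode a histone acetyltransferase, a TFIID subunit and a histone methyltransferase. For Arid1b they were Auts2 (0.66), Vps53 (0.63) and Tgfbrap1 (0.62) with all libraries and Bsn (0.71), Zcchc7 (0.66) and Klf3 (0.66) without the 3.

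For Dpf1 the most similar genes were Celsr1 (r 0.76), Rprml (0.75) and Onecut3 (0.74), for Dpf2 Kmt2b (0.88), Snapc4 (0.81) and Kdm2a (0.77), and for Dpf3 Mepce (0.87), Cacng4 (0.86) and Aldh7a1 (0.84). Ss18 was most like Ubtf (0.81), Paf1 (0.79) and Sin3a (0.79), and Ss18l1 most like Mgrn1 (0.74), Gpsm1 (0.74) and Src (0.72). Several of these names changed without the 3 libraries. The most similar genes were then Rprml (0.78), Eif2s3x (0.77) and Celsr1 (0.75) for Dpf1, Kmt2b (0.87), Edc4 (0.80) and Snapc4 (0.78) for Dpf2, and Cacng4 (0.87), Aldh7a1 (0.87) and Mepce (0.86) for Dpf3. They were Srsf4 (0.85), Ubtf (0.84) and Acin1 (0.83) for Ss18, and Sp9 (0.75), Sgsm2 (0.74) and Unc119 (0.74) for Ss18l1. Among the members themselves, Arid1a and Arid1b had an r of 0.45, Dpf3 and Ss18 one of 0.54, and Dpf1 and Ss18 one of -0.40, and without the 3 libraries these were 0.45, 0.52 and -0.41.

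Whether 1 paralog was high where another was low was tested over the 13 hSS2 control tumors, for 5 pairs, with two-sided permutation tests of 1e+05 resamples and adjustment over the 5. Arid1a and Arid1b gave a Pearson r of 0.17 (permutation p 0.461, adjusted p 0.769) and a Spearman rho of 0.16 (permutation p 0.589, adjusted p 0.949). Without the 2 tumors farthest from the median of Arid1a the r was 0.15, and without control replicates 1 and 9 it was -0.04. No inverse relation between the ARID1 paralogs was detectable among control tumors.

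Over all 13 control tumors Dpf2 was lower by rank where the other DPF genes were higher, and this did not hold its threshold without control replicates 1 and 9. Dpf2 and Dpf3 gave an r of -0.66 (permutation p 0.0278, adjusted p 0.139) and a rho of -0.65 (permutation p 0.0189, adjusted p 0.0471), with r -0.78 when the 2 tumors farthest from the median of Dpf2 were left out. Dpf1 and Dpf2 gave an r of -0.52 (permutation p 0.0614, adjusted p 0.154) and a rho of -0.69 (permutation p 0.0109, adjusted p 0.0471), with r -0.61 without 2 tumors. Both pairs thus passed the threshold by Spearman's rho and not by Pearson's r. Each of these 2 statistics was adjusted over its own 5 pairs, and no adjustment covered both together. Control replicate 1 had both the lowest Dpf2 and the highest Dpf3 level. Without replicates 1 and 9, Dpf2 and Dpf3 gave an r of -0.58 (permutation p adjusted 0.412) and a rho of -0.65 (permutation p 0.0337, adjusted p 0.168), and Dpf1 and Dpf2 an r of -0.39 (permutation p adjusted 0.619) and a rho of -0.50 (permutation p 0.123, adjusted p 0.307). Each mouse number range holds only 4 or 5 control tumors, too few for a correlation of its own, and residuals from the range means gave an r of -0.60 for Dpf2 and Dpf3 and of -0.41 for Dpf1 and Dpf2. Dpf1 and Dpf3 had an r of 0.06 (permutation p adjusted 0.853), and Ss18 and Ss18l1 an r of -0.11 (permutation p 0.729, adjusted p 0.853), which was -0.40 without 2 tumors. Over all hSS2 libraries, with the mean of each group subtracted, Dpf2 had an r of -0.11 with Dpf3 and of -0.36 with Dpf1. Both relations of Dpf2 were thus weaker there than among the control tumors alone, and no test was applied to these values.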

How the data were processed

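Bulk RNA from 46 frozen mouse tumors, 1 library each, was sequenced from rRNA-depleted, stranded, paired-end libraries. The authors deposited raw read counts per gene in 2 tables, hSS2 and hSS1. Per the submitters' processing notes, reads were aligned to mm10 with STAR 2.7.11 and counted with featureCounts 1.6.3. The strand and multi-mapping settings and the annotation release are not given in the sources used here. The study tested its counts with DESeq2. Each count column was matched to a tumor by its label, and none was left unused.

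From the counts, TMM-scaled CPM and CPM per kilobase of exon (GENCODE M21, GRCm38) were computed. Genes passing filterByExpr (20083 in hSS2, 17786 in hSS1, 21725 over both tables) entered the robust quasi-likelihood test of edgeR 4.0.16 (R 4.3.3, two-sided, Benjamini-Hochberg, threshold 0.05). Groups came from the labels, and replicates were numbered in accession order. The study states that littermates served as controls, and the labels name no litters. With 1 library per tumor, p-values reflect the spread between tumors. Intervals are the estimate ± 1.96 SE. This normal approximation is narrower than the edgeR test allows, so an interval can exclude 0 where the unadjusted p is above 0.05. The script was tested on simulated counts.

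The members and all gene lists were chosen with earlier results of these data known. All 7 members were named, other BAF-family genes past the threshold, and the 3 genes most like each member among protein-coding genes with a mean of at least 1 CPM, 1 of which is not reported here. Alternatives were DESeq2 1.42.0, its size factors, no filter, the muscle score or mouse number range as a term, fewer tumors and each tumor left out. The macrophage term, the fits without 3 libraries the spread, shares and correlations without them, and the neighbor measure were added after seeing the data. Log2 CPM used a prior count of 2.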

Additional observations from a re-analysis of the deposited data

Results flagged for a closer look

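In the 5 groups of 4 to 10 tumors, every member was examined for a highest or lowest tumor whose gap to the nearest other tumor, as a share of the group's range, was above Dixon's 95% critical value for that group size. The 13 hSS2 control tumors were not examined in this way. Of 35 sets of values, 2 held such a tumor, and 1.75 would be flagged by chance at 1 in 20. Dpf1 stood at 25.5 CPM in hSS1 control replicate 4, against 8.69 CPM in the next highest hSS1 control tumor, a gap of 0.82 of the group's range. Dpf3 stood at 22.3 CPM in hSS2 Arid1b-fl replicate 2, against 12.6 CPM in the next highest tumor of that group, a gap of 0.62 of the range.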

How the results depend on the processing

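Outside of leaving out single tumors, 374 values kept their sign and side of the threshold, 21 changed sign, 6 newly passed and 1 no longer passed. No value that changed sign had passed the threshold. With the mouse number range as a term, Ss18l1 was -0.07 in Pbrm1-fl, Dpf2 -0.07 and Dpf3 0.18 in Arid1a-fl, Arid1a -0.12 and Ss18l1 0.03 in Arid1b-fl tumors, and Dpf1 0.02 and Dpf2 -0.13 in Arid1a-fl against Arid1b-fl tumors. Against control tumors of the same range, Ss18l1 was -0.07, Dpf2 -0.06, Dpf3 0.20, Arid1a -0.13 and Ss18l1 0.03 in the same order of groups. Without the 3 libraries, Arid1b was 0.01 and Dpf2 -0.03 in Pbrm1-fl, Dpf3 0.08 in Arid1a-fl and Dpf2 -0.06 in Arid1b-fl tumors. With the macrophage term, Dpf3 and Ss18l1 were both -0.08 in hSS1. Among the correlations, Arid1a with Arid1b was -0.04 without control replicates 1 and 9, and Dpf1 with Dpf3 was -0.10 on residuals and -0.09 without those tumors. DESeq2 gave -0.81 for Arid1b in Arid1b-fl tumors (adjusted p 0.0214). The count of members past the threshold in Arid1a-fl tumors was 3 in DESeq2 and with the macrophage term and 2 with the muscle term, that in Arid1b-fl tumors 1 in DESeq2, and that in Arid1a-fl against Arid1b-fl tumors 0 with the range term. The cause was not tested.

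Leaving out 1 tumor at a time gave -0.96 to -0.68 for Arid1b in Arid1b-fl tumors, 1 to 3 members past the threshold in Arid1a-fl and 0 to 1 in Arid1b-fl tumors. It changed the sign of Arid1b (-0.15 to 0.04), Dpf2 (-0.01 to 0.08) and Dpf3 (-0.33 to 0.00) in hSS2 Pbrm1-fl, Dpf3 (-0.11 to 0.08) in Arid1a-fl, and Arid1a (-0.04 to 0.12), Dpf2 (-0.03 to 0.07) and Dpf3 (-0.01 to 0.37) in Arid1b-fl tumors. The range was 0.00 to 0.08 for Dpf2 between Arid1a-fl and Arid1b-fl tumors, -0.17 to -0.00 for Arid1a and -0.04 to 0.42 for Ss18l1 in hSS1, and -0.15 to 0.31 for Ss18l1 in the test between hSS1 and hSS2. No paired analysis was possible because the labels give no replicate numbers shared between groups and do not say which tumors share a litter.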
